A study of Mus musculus with 19 samples.

Results

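The genes described here are 40 cell cycle genes that mark dividing cells, among the 25639 genes of each deposited table. They were chosen by name and fall into 2 lists. The S phase list has 14 members: Mcm2, Mcm3, Mcm4, Mcm5, Mcm6, Mcm7, Pcna, Gins2, Cdc6, Cdc45, Tyms, Ung, Rrm1 and Rrm2. The mitotic list has 26 members: Mki67, Top2a, Ccna2, Ccnb1, Ccnb2, Cdk1, Cdc20, Bub1, Bub1b, Cenpe, Cenpf, Cenpa, Kif11, Kif20a, Kif23, Aurka, Aurkb, Plk1, Birc5, Tpx2, Nusap1, Ube2c, Hmgb2, Stmn1, Hmmr and Ttk. All 40 were present in both tables and all 40 passed the filters on low values in both.

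The study sorted T cells out of liver metastases of mice, at day 30 after Venus-AKTPM/LOH colorectal cancer cells had been injected into the spleen. All mice carried floxed alleles of Tet2, the gene of a dioxygenase that acts on methylated cytosines of DNA. Tet2fl/fl mice served as controls, Vav1CreTet2KO mice delete Tet2 with a Cre under the Vav1 promoter, which is active throughout blood cells, and Cd4CreTet2KO mice delete it with a Cre under the Cd4 promoter, which becomes active in developing T cells before they become CD4 or CD8 cells. Vav1CreTet2KO mice thus carry the deletion in their other blood cells too, whereas Cd4CreTet2KO mice are targeted in the T lineage. CD8 cells came from 3 Tet2fl/fl, 3 Vav1CreTet2KO and 4 Cd4CreTet2KO mice, and CD4 cells from 3 mice of each genotype, for 19 bulk RNA sequencing libraries in all. They came from 11 animals, and 8 animals gave both a CD8 and a CD4 library.

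A cell that divides first licenses and fires its replication origins, for which it builds the MCM helicase ring, loads it with Cdc6 and activates it with Cdc45 and Gins2, while Pcna clamps the polymerases to DNA and Rrm1, Rrm2 and Tyms supply deoxynucleotides. It then condenses and separates its chromosomes under the control of Cdk1, its cyclins and the Aurora and Polo kinases, with motors, spindle proteins and checkpoint kinases as effectors. Genes of the first set are classically induced by E2F factors before S phase, and those of the second set by MYB and FOXM1 bound with the MuvB complex to CHR elements, often beside CCAAT boxes. T cells that meet antigen in a tumour divide, and the transcripts of these genes are a common measure of how many cells of a sample are in cycle.

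Promoters of S phase members held E2F motifs more often than other promoters did, and those of mitotic members held CHR motifs more often. RefSeq promoters (GRCm38.p6) were found for 12 of the 14 S phase and 21 of the 26 mitotic members, and the 250 bases before each start were searched on both strands for the CHR (TTTGAA or TTCGAA), the CCAAT box (CCAAT) and the E2F motif (TTTGGCG or TTTCCCG and also TTTCGCG or TTCCCGC), whose forms can overlap each other. An E2F motif stood in 41.7% of the S phase, 14.3% of the mitotic and 8.31% of all 27025 genes with a promoter. A CHR stood in 25% of the S phase, 42.9% of the mitotic and 19.6% of all promoters. CCAAT boxes stood in 75%, 90.5% and 37.5%, and a CHR together with a CCAAT box stood in 25%, 42.9% and 7.00%. A match describes the letters only, not binding of a factor. The 160 bases before the start, read 5′ to 3′ along the gene, are shown for 5 members named in the results below, with motif matches on either strand in capitals.
Mcm5: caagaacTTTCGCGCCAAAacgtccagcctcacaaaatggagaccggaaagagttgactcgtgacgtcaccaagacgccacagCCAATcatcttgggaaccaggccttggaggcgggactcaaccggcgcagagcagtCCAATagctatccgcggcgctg
Cdc20: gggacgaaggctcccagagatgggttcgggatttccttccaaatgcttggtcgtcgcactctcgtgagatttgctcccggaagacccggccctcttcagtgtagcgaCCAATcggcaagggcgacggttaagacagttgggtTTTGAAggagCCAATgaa
Hmgb2: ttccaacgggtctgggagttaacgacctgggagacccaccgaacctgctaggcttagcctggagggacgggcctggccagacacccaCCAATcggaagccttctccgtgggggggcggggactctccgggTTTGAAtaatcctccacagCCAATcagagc
Plk1: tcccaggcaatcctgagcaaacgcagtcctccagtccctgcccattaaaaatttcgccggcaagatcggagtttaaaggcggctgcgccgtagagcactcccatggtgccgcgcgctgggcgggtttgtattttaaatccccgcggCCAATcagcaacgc
Cenpe: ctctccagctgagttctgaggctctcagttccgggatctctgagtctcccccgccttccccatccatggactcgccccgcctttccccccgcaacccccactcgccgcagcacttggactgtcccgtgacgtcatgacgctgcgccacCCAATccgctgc
Mcm5, a subunit of the helicase ring (chr8:75109349-75109508, plus strand), is the S phase example, with 2 overlapping E2F matches at the left and 2 CCAAT boxes. Cdc20, the activator of the anaphase-promoting complex (chr4:118437344-118437503, minus strand), and Hmgb2, a chromatin protein whose transcript peaks in late cycle (chr8:57511683-57511842, plus strand), have a CHR between 2 CCAAT boxes in this window. The windows of the mitotic kinase Plk1 (chr7:122159275-122159434, plus strand) and of Cenpe, the motor that carries chromosomes to the spindle equator (chr3:135212403-135212562, plus strand), hold 1 CCAAT box and no CHR.

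Library depth differed, and 1 library was far shallower than the rest. CD8 libraries held 8189300 to 20327809 reads on genes. CD4 libraries held 7501026 to 17575534, apart from Vav1CreTet2KO replicate 1 with 707866 reads and 7761 genes detected. In CD8 Vav1CreTet2KO replicate 1, 29.6% of the genes tested had the lowest and 26.3% the highest value of the 10 CD8 libraries, and 50.6% of its low counts were odd against 13.1% to 30.7% elsewhere, so that its reads may be in another unit. Cd8a and Cd8b1 summed to 335 to 428 RPKM (reads scaled to gene length and library size) in CD8 Tet2fl/fl, 263 to 370.2 in CD8 Vav1CreTet2KO and 231 to 301 in CD8 Cd4CreTet2KO libraries, and to at most 8.01 in CD4 libraries, and Cd4 stood at 39.5 to 122.4 RPKM in CD4 libraries and at most 7.68 in CD8 libraries. Transcripts of 7 dendritic cell markers summed to 6.24 to 25.0 RPKM in CD8 Tet2fl/fl, 53.2 to 105 in CD8 Vav1CreTet2KO and 24.5 to 174 in CD8 Cd4CreTet2KO libraries, and those of 10 macrophage markers to 38.2 to 64.0, 71.5 to 159 and 40.2 to 427. Markers of B cells and hepatocytes summed to at most 14.9 and 17.8 RPKM in any library, those of neutrophils to at most 88.1, of erythroid cells 50.3 (in CD4 Vav1CreTet2KO replicate 2, the next highest library having 13.7) and of colorectal epithelium 28.8. Tet2 itself stood at 6.57 to 8.06 RPKM in CD8 Tet2fl/fl, 2.93 to 6.28 in CD8 Vav1CreTet2KO and 3.02 to 7.57 in CD8 Cd4CreTet2KO libraries. In CD4 cells it stood at 3.87 to 7.02, 2.77 to 5.65 and 4.53 to 7.28. The labels do not say which exons are floxed, so reads over the whole gene do not check the genotypes.

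Members differed widely in level. On the RPKM scale, which allows genes to be compared, the highest S phase member was Pcna, with a median of 36.7 over the CD8 and 32.0 over the CD4 libraries, and the lowest was the origin loader Cdc6, at 1.04 and 0.822. Hmgb2 was the highest mitotic member at 85.1 and 86.5 RPKM, followed by the tubulin-binding protein Stmn1 (35.9 and 26.5) and the proliferation antigen Mki67 (32.7 and 32.9). The spindle checkpoint kinase Ttk was the lowest mitotic member in CD8 cells at a median of 0.721 RPKM, and Cdk1, the kinase that drives entry into mitosis, the lowest in CD4 cells at 0.983. Low members thus rest on few reads, Cdk1 on 24 to 290 per CD4 library.

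To see how the members moved together, each library was given a score per list, the mean of log2(RPKM + 1) over its members. In CD8 cells the S phase score was 3.65, 3.05 and 3.68 in the Tet2fl/fl libraries (3.46 ± 0.35, SD, n = 3), 2.63, 3.36 and 2.38 in Vav1CreTet2KO (2.79 ± 0.51, n = 3) and 3.23, 2.87, 3.26 and 3.17 in Cd4CreTet2KO (3.13 ± 0.18, n = 4), in the order of the replicate numbers. The mitotic score was 2.93, 2.43 and 2.86 in Tet2fl/fl, 2.60, 2.93 and 1.46 in Vav1CreTet2KO and 2.80, 2.20, 2.79 and 2.64 in Cd4CreTet2KO CD8 cells. The genotypes overlapped in both scores, and the widest spread was within Vav1CreTet2KO. In CD4 cells the S phase score was 3.17, 2.65 and 2.72 in Tet2fl/fl, 2.84, 3.43 and 2.64 in Vav1CreTet2KO and 3.17, 2.79 and 2.77 in Cd4CreTet2KO. The mitotic score of CD4 cells was 2.53, 2.12 and 2.12 in Tet2fl/fl (2.26 ± 0.24), 2.83, 3.34 and 2.30 in Vav1CreTet2KO (2.82 ± 0.52) and 2.91, 2.48 and 2.63 in Cd4CreTet2KO (2.67 ± 0.21). Again the genotypes overlapped. In the mitotic score 2 control libraries were the lowest of the 9 and a Vav1CreTet2KO library was the highest. A bulk library cannot tell a lower share of dividing cells from less of these transcripts per dividing cell, here or in any result below.

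**Figure D1:**
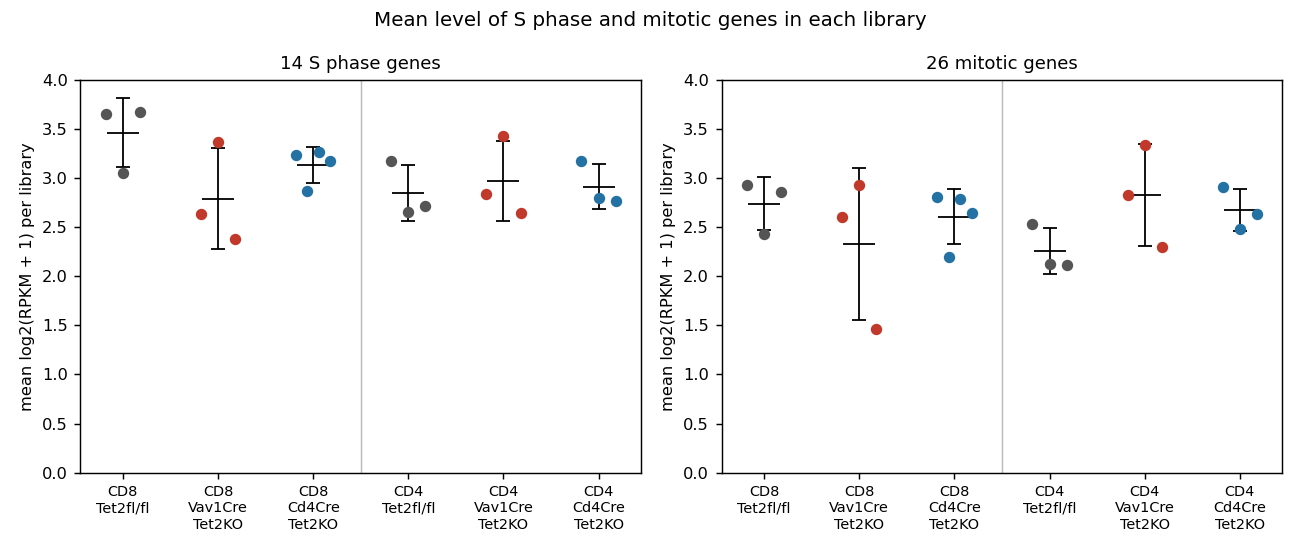
Mean log2(RPKM + 1) over the 14 S phase and the 26 mitotic members in each library, by genotype, for CD8 and CD4 cells. Points are libraries, and bars are the group mean and SD. CD8 Vav1CreTet2KO replicate 3 has the lowest mitotic score, 1.46, and CD4 Vav1CreTet2KO replicate 2 the highest, 3.34.

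Single libraries stood out gene by gene. CD8 Vav1CreTet2KO replicate 3 had the lowest of 10 values in 19 of 26 mitotic and 6 of 14 S phase members, and lay below the CD8 median in all 26 and all 14. Over all genes tested it had the lowest value in 13.48%, and its median deviation from the gene medians was -0.16 on the log2(RPKM + 1) scale, against -1.28 over the mitotic members. CD8 Cd4CreTet2KO replicate 2 lay below the median in 26 of 26 mitotic members as well. CD4 Vav1CreTet2KO replicate 2 had the highest of 9 values in 14 of 26 mitotic members, beside 24.2% of all genes tested, and lay above the CD4 median in 23. It also had the erythroid transcripts given above, whose part in its values was not tested. The share of a library's reads, as implied by RPKM, that fell on genes was also near an end of its range in these 3 libraries. It was 36.4% in CD8 Vav1CreTet2KO replicate 3 and 34.4% in CD8 Cd4CreTet2KO replicate 2, the 2 lowest of the CD8 libraries, and 51.4% in CD4 Vav1CreTet2KO replicate 2, the highest of the CD4 libraries. After rescaling by size factors the mitotic scores of these 3 libraries were 1.60, 2.38 and 3.16, still the lowest and next lowest of the CD8 and the highest of the CD4 libraries. CD8 libraries of higher share mostly had higher mitotic scores. CD8 Vav1CreTet2KO replicate 2 (48.6%) and CD8 Tet2fl/fl replicate 1 (48.4%) had the highest CD8 mitotic scores, 2.93 each. CD8 Vav1CreTet2KO replicate 1, whose unit is in doubt, departed from this. Its share was the highest, 53.3%, beside an S phase score of 2.63 and a mitotic score of 2.60. In CD4 cells, Tet2fl/fl replicate 2 had a share of 45.3% and a mitotic score of 2.12, and Vav1CreTet2KO replicate 1 had 38.3% and 2.83. What the share contributed to the scores was not tested. The shallow CD4 Vav1CreTet2KO replicate 1 listed 2 S phase and 2 mitotic members at 0, and CD8 Vav1CreTet2KO replicate 1 listed 1 and 3. Of the 3 Vav1CreTet2KO animals, replicate 2 was highest in both cell types and both scores. Replicate 3 was lowest in each, except that replicate 1 was lowest in the CD8 S phase score after rescaling (2.51 against 2.56).

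**Figure D2:**
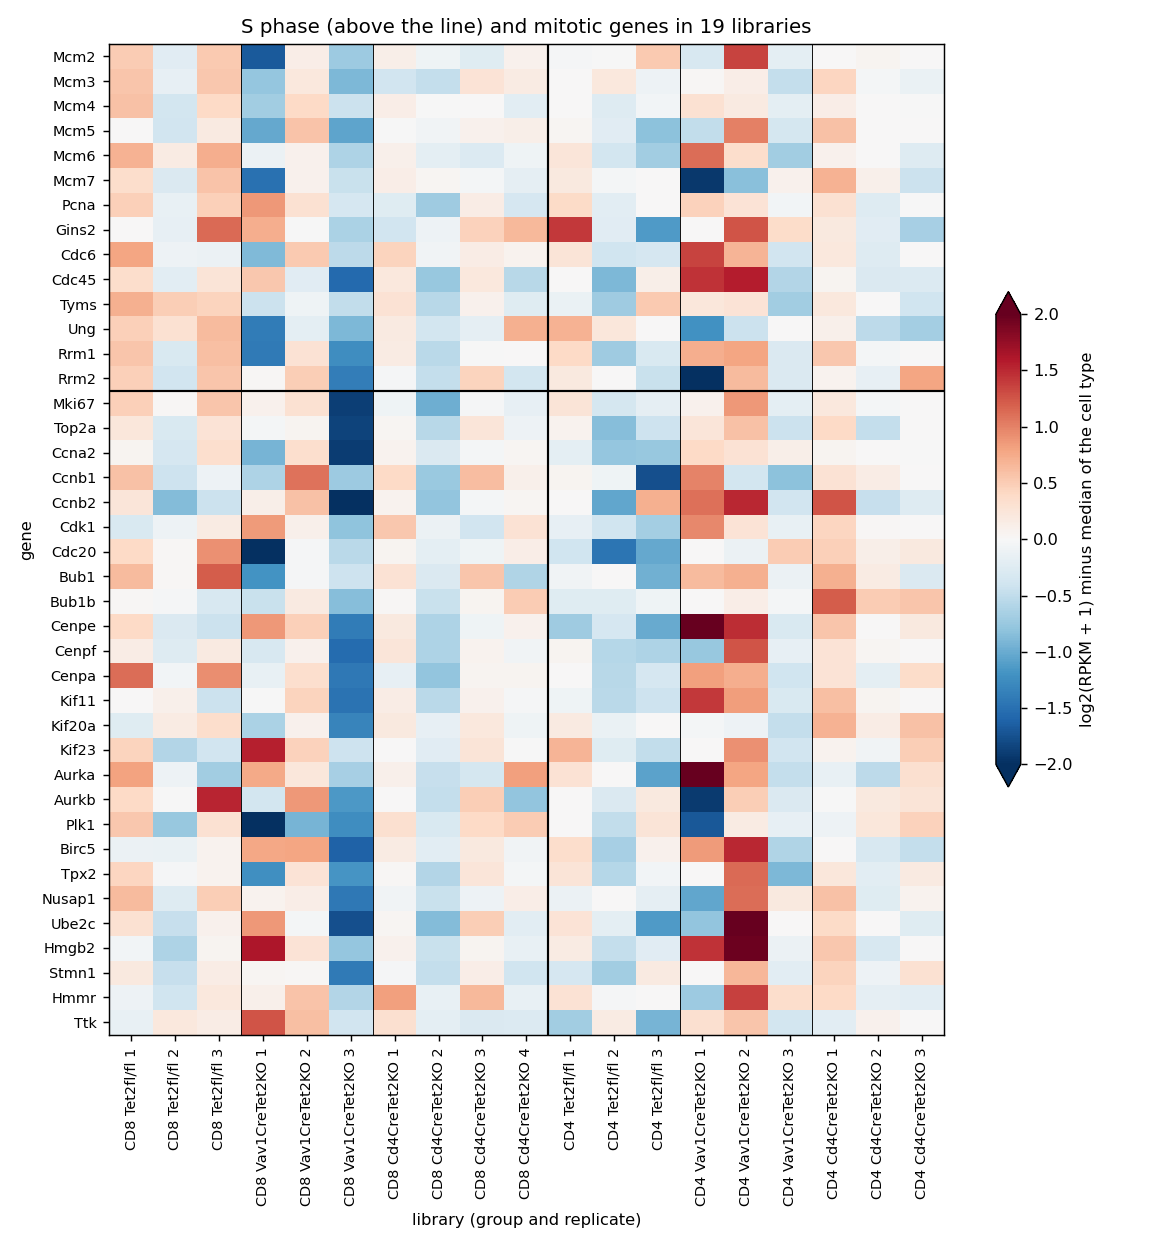
Level of each of the 40 members in each of the 19 libraries, as log2(RPKM + 1) minus the median over the libraries of that cell type, with S phase members above and mitotic members below. CD8 Vav1CreTet2KO replicate 3 is below the median in all 26 mitotic members, and CD4 Vav1CreTet2KO replicate 2 is above it in 23.

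The first comparison set CD8 T cells from metastases of Vav1CreTet2KO mice against those of Tet2fl/fl mice. Members were mostly lower in Vav1CreTet2KO than in Tet2fl/fl CD8 cells, and none passed the test. The fold change was below 0 for 13 of 14 S phase members, with a median of -0.65 on the log2(RPKM + 1) scale and a range of -1.31 to 0.01. It was below 0 for 18 of 26 mitotic members, with a median of -0.35 and a range of -1.45 to 0.71, while the median over all genes tested was -0.11. By limma, 0 of 40 members had an adjusted p under 0.05, where 1.45% of the 10224 genes tested did. At an unadjusted p under 0.05, 7 S phase and 5 mitotic members were lower and none higher, beside 11.6% of all genes lower and 5.7% higher. edgeR on reads recovered from the RPKM values called 0 members, and DESeq2 on the same reads called 1, Mcm6, at -0.69 with an adjusted p of 0.012, where it called 6.17% of all genes.

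Among the S phase members, Ung, the glycosylase that removes uracil from DNA, had the smallest p. It stood at 2.67, 2.26 and 3.07 RPKM in Tet2fl/fl and at 0, 1.29 and 0.408 in Vav1CreTet2KO CD8 cells. All 3 control libraries were above all 3 knockout libraries (log2 fold change -1.31 ± 0.38, SE, limma adjusted p = 0.107). Tyms, which makes thymidylate, stood at 3.25, 2.69 and 2.54 in controls and 0.941, 1.46 and 0.857 in Vav1CreTet2KO, again without overlap (-0.88 ± 0.31, limma adjusted p = 0.172). The helicase subunit Mcm6 was the third S phase member whose ranges were apart, with 37.5, 25.5 and 38.2 RPKM against 20.9, 24.1 and 14.5 (-0.74 ± 0.26, limma adjusted p = 0.174). These 3 of 14 compare with 12.9% of all genes whose Vav1CreTet2KO libraries were all below the controls, and 6.92% whose were all above. Not all helicase subunits followed: Mcm5 stood at 14.02, 10.4 and 15.9 RPKM in controls and at 6.32, 21.0 and 6.19 in Vav1CreTet2KO, with 1 knockout library above every control (-0.44, limma adjusted p = 0.565). The clamp Pcna stood at 51.3, 32.8 and 51.0 in controls and 67.3, 45.4 and 28.8 in Vav1CreTet2KO CD8 cells. Its fold change was 0.01 with a limma adjusted p of 0.989, and it was negative without Tet2fl/fl replicate 2 (-0.20) or Vav1CreTet2KO replicate 1 (-0.28). Rrm2, the small subunit of ribonucleotide reductase, stood at 11.02, 5.63 and 11.7 RPKM against 7.80, 11.2 and 2.31, and its groups overlapped.

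Among the mitotic members, the ranges were apart for 3 of 26, all lower, a share no larger than the 12.9% of all genes. The kinase Plk1 stood at 5.05, 1.45 and 4.16 RPKM in Tet2fl/fl and 0, 1.202 and 0.754 in Vav1CreTet2KO CD8 cells (-1.44 ± 0.41, limma adjusted p = 0.105). Cdc20 stood at 6.26, 4.58 and 9.39 against 0, 4.42 and 2.77 (-1.45 ± 0.50, limma adjusted p = 0.172). The checkpoint kinase Bub1 stood at 2.58, 1.35 and 4.33 against 0, 1.25 and 0.726 (-1.18 ± 0.43, limma adjusted p = 0.187). The gaps were narrow, since the highest knockout library came close to the lowest control in each, and the zeros all belonged to Vav1CreTet2KO replicate 1. Cenpa, the histone variant of centromeres, stood at 15.9, 6.51 and 13.8 against 6.04, 8.83 and 1.90 RPKM, with overlap (-1.08 ± 0.45, limma adjusted p = 0.241).

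The most abundant mitotic transcripts did not separate the genotypes. Mki67 stood at 46.2, 33.2 and 48.3 RPKM in Tet2fl/fl and 34.9, 40.6 and 8.15 in Vav1CreTet2KO CD8 cells (-0.85 ± 0.48, limma adjusted p = 0.385). Top2a, which untangles sister DNA, stood at 26.3, 17.9 and 27.0 against 21.6, 23.2 and 5.43 (-0.68 ± 0.44, limma adjusted p = 0.444). In both genes Vav1CreTet2KO replicate 3 was far below the other 9 CD8 libraries, while the other two knockout libraries lay within the control range. Stmn1 stood at 41.0, 25.9 and 40.0 RPKM in controls and 36.9, 36.4 and 12.8 in Vav1CreTet2KO. Hmgb2 stood at 82.0, 54.9 and 88.3 in controls and 264, 103 and 49.1 in Vav1CreTet2KO, where replicates 1 and 2 exceeded every control. Birc5, the survivin subunit of the chromosomal passenger complex, stood at 2.93, 2.89 and 3.48 against 6.23, 6.31 and 0.385 RPKM. Cdk1 stood at 0.781, 1.05 and 1.46 against 2.96, 1.35 and 0.250, and its partner Ccnb1 at 3.58, 1.301 and 1.84 against 0.988, 5.46 and 0.842. In all of these the Vav1CreTet2KO libraries spread further than the controls.

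The mitotic shift in this comparison rested on 1 library. Without CD8 Vav1CreTet2KO replicate 3, the mitotic median was 0.02, with 13 members above and 13 below 0, whereas the S phase median was -0.46 with 10 of 14 members below 0. Without replicate 1, whose unit is in doubt, the S phase and mitotic medians were -0.65 and -0.66. Without Vav1CreTet2KO replicate 2, the mitotic median was -0.76, and 2 of 40 members passed, Rrm1 at -1.61 (limma adjusted p = 0.038) and the spindle assembly factor Tpx2 at -1.36 (limma adjusted p = 0.0445), where 2.1% of all genes did. The dendritic markers given above were higher in these knockout libraries too (Flt3 rose by 2.72 and Clec9a by 2.80, limma adjusted p = 0.028 and 0.043), and their part in the members' values was not tested.

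The next comparison set CD8 cells of Cd4CreTet2KO mice against the same controls. S phase members were again mostly lower in Cd4CreTet2KO than in Tet2fl/fl CD8 cells, by less, and mitotic members showed no common direction. The fold change was below 0 for 13 of 14 S phase members (median -0.34, range -0.66 to 0.09) and for 14 of 26 mitotic members (median -0.06, range -0.88 to 0.39), and the median over all genes was -0.15. The sign of the mitotic median depended on the scaling: with RPKM rescaled by size factors, which moved the median of all genes from -0.15 to 0.01, 18 of 26 were above 0 with a median of 0.10. The S phase median was then -0.16, with 12 of 14 below 0. By limma 0 of 40 members passed, where 0.509% of all genes did, and edgeR and DESeq2 on recovered reads also called 0. At an unadjusted p under 0.05, 2 S phase members were lower and no mitotic member was, beside 8.68% of all genes lower and 3.68% higher. Both comparisons use the same 3 control libraries. T cell markers were lower in this group as well: 8 of 8 had a fold change below 0 (median -0.51, 3 at an unadjusted p under 0.05, 0 passing by limma), and their sum was 597 to 931 RPKM against 874 to 1256 in controls. Dendritic cell markers were higher, as in Vav1CreTet2KO: 6 of 7 had a fold change above 0 (median 1.66). Of the 7, 6 were higher at an unadjusted p under 0.05, 3 without overlap and 0 passing by limma. The part of these markers in the members' values was not tested.

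Those S phase members were Mcm6 and Tyms. Mcm6 stood at 24.3, 19.6, 18.6 and 21.3 RPKM in Cd4CreTet2KO CD8 cells, all below the lowest control (-0.65 ± 0.24, limma adjusted p = 0.278). Tyms stood at 2.18, 0.773, 1.76 and 1.21, also below every control (-0.66 ± 0.29, limma adjusted p = 0.376). Pcna stood at 30.7, 21.8, 40.6 and 28.6 (-0.55, limma adjusted p = 0.520), with 1 library inside the control range. Mcm5 stood at 13.7, 13.2, 14.8 and 15.2 RPKM, within the control range (0.09, limma adjusted p = 0.945), and Rrm2 at 7.48, 5.22, 10.7 and 5.73. S phase members therefore did not keep to 1 size of difference.

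Mki67 was the only mitotic member whose ranges were apart, at 30.6, 16.1, 32.3 and 29.1 RPKM in Cd4CreTet2KO against a lowest control of 33.2 (-0.67 ± 0.45, limma adjusted p = 0.613). Together these 3 of 40 members compare with 14% of all genes lower and 3.85% higher without overlap. Cenpa stood at 5.98, 3.53, 7.07 and 7.07 (-0.88 ± 0.42, limma adjusted p = 0.429), Aurkb, the kinase of the chromosomal passenger complex, at 3.18, 1.97, 4.83 and 1.41 (-0.83 ± 0.50, limma adjusted p = 0.549), and Bub1 at 1.82, 0.889, 2.38 and 0.523 (-0.64, limma adjusted p = 0.580). These 3 overlapped with the controls. Top2a stood at 22.9, 14.8, 26.4 and 20.8 RPKM, close to the controls, with a fold change of -0.16 (limma adjusted p = 0.918) that was 0.04 after rescaling. Hmgb2 (90.3, 62.1, 88.4 and 77.0), Stmn1 (35.4, 25.5, 39.5 and 26.8), Birc5 (3.78, 2.68, 3.87 and 3.03), Cdk1 (2.19, 1.02, 0.690 and 1.69) and Ccnb1 (3.01, 0.830, 3.66 and 2.28 RPKM) also overlapped with the controls. Replicate 2 was the lowest of the 4 in Mki67, Top2a, Cenpa, Hmgb2, Stmn1, Birc5 and Ccnb1. Replicates 1 and 2 of this group carried most macrophage marker transcript (427 and 225 RPKM against 40.2 and 48.5). Without both, a comparison added after the data had been seen, the S phase median was -0.30 and the mitotic median 0.04.

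Set against each other in CD8 cells, the 2 knockouts differed in no member that passed the test. Fold changes of Vav1CreTet2KO over Cd4CreTet2KO were below 0 for 13 of 14 S phase members (median -0.31) and 21 of 26 mitotic members (median -0.26), where the median over all genes was 0.04. By limma 0 of 40 members and 0% of all genes passed, edgeR and DESeq2 on recovered reads called 0 members, and 1 S phase and 1 mitotic member had an unadjusted p under 0.05, both lower, beside 2.67% of all genes lower and 3.66% higher. Plk1 was the mitotic one, with 4.22, 2.37, 4.53 and 4.96 RPKM in Cd4CreTet2KO, all above the 3 Vav1CreTet2KO libraries (-1.64 ± 0.39, limma adjusted p = 0.723), a separation that 2.46% of all genes showed in this direction and 2.07% in the other. Ung was the S phase one, with 1.98, 1.04, 1.31 and 3.29 RPKM in Cd4CreTet2KO and overlap (-0.92 ± 0.35, limma adjusted p = 0.723). Mcm2 (-0.73), Cdc20 (-0.98), Ccna2 (-0.78), Mcm5 (-0.54) and the cytokinesis motor Kif20a (-0.67) were lower and Pcna (0.57) higher, each with a limma adjusted p of 0.723. Mki67 (-0.18, limma adjusted p = 0.914) and Top2a (-0.52, limma adjusted p = 0.759) turned to 0.51 and 0.11 without Vav1CreTet2KO replicate 3, and the mitotic median to 0.26.

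In CD4 cells most members pointed the other way, a contrast between the cell types that was not tested. The fold change of Vav1CreTet2KO over Tet2fl/fl was above 0 for 23 of 26 mitotic members, with a median of 0.98 on the log2 scale of edgeR and a range of -0.35 to 2.69. It was above 0 for 10 of 14 S phase members, with a median of 0.36 and a range of -1.25 to 1.71, while the median over all genes was -0.16. By edgeR 0 of 40 members passed, where 0.00738% of the 13554 genes tested did, and limma on log2(RPKM + 1) called 0 as well. DESeq2 called 2 mitotic members, Cenpe (2.69, adjusted p = 0.000839) and Hmgb2 (1.59, adjusted p = 0.0165), and 3.54% of all genes. edgeR without the filter on low counts called the same 2 members and 1.9% of all genes. The authors' deposited table lists the same genes, Cenpe with a log2 fold change of 2.67 and a false discovery rate of 0.000511 and Hmgb2 with 1.59 and 0.0164, and no other member under 0.05, where 1.11% of the genes in that table are. At an unadjusted p under 0.05 by edgeR, 5 mitotic and 0 S phase members were higher and none lower, beside 6.72% of all genes higher and 5.21% lower.

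Cenpe stood at 1.74, 2.57 and 1.24 RPKM in Tet2fl/fl and 17.99, 11.6 and 2.64 in Vav1CreTet2KO CD4 cells. All knockout libraries were above the controls, replicate 3 by a small margin (2.63 ± 0.56, SE, edgeR adjusted p = 0.111). Hmgb2 stood at 96.8, 61.6 and 74.0 against 237, 340 and 79.7 RPKM, with replicate 3 inside the control range (1.57 ± 0.38, edgeR adjusted p = 0.1501). Kif11, the motor that pushes spindle poles apart, stood at 5.95, 4.09 and 4.52 against 18.8, 12.1 and 4.97 (1.39 ± 0.45, edgeR adjusted p = 0.262). Replicate 3 was thus near the controls in all 3 genes, and without it Cenpe (3.07), Hmgb2 (1.94) and Kif11 (1.74) passed, with edgeR adjusted p of 0.00271, 0.00278 and 0.0198, 3 of 40 members where 5.68% of all genes passed. The spindle kinase Aurka stood at 3.18, 2.43 and 0.641 against 30.7, 4.92 and 1.47, its high value being in the shallow replicate 1 (2.69 ± 1.03, edgeR adjusted p = 0.346). Ccna2, the cyclin of S phase and early mitosis, stood at 4.24, 2.52 and 2.56 against 6.86, 6.31 and 5.47, without overlap (1.12 ± 0.50, edgeR adjusted p = 0.399).

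Ranges were apart for 5 mitotic members, all higher, and for no S phase member, where 3.19% of all genes were higher and 12.5% lower without overlap. Besides Cenpe and Ccna2 they were Cdk1, Cdc20 and Bub1b, named here after their values were seen. Cdk1 stood at 0.764, 0.508 and 0.240 against 2.87, 1.39 and 0.789 RPKM, and Cdc20 at 2.05, 0.461 and 0.968 against 3.02, 2.72 and 4.68. Mki67 stood at 39.3, 25.5 and 28.8 in controls and 34.9, 60.4 and 28.7 in Vav1CreTet2KO (0.49, edgeR adjusted p = 0.475), and Top2a at 23.2, 11.6 and 16.2 against 26.1, 33.5 and 16.0 (0.66, edgeR adjusted p = 0.443). Stmn1 (20.8, 16.0 and 30.1 against 26.5, 42.4 and 22.7), Birc5 (4.33, 1.65 and 3.42 against 6.52, 10.9 and 1.75) and Ccnb1 (3.17, 2.79 and 0.187 against 6.96, 2.13 and 1.27 RPKM) overlapped too. In Mki67, Top2a, Stmn1 and Birc5 replicate 2 was the highest CD4 library of all 9.

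S phase members of CD4 cells gave no such pattern. Cdc45 (1.71 ± 0.87, edgeR adjusted p = 0.465) and Mcm6 (0.79 ± 0.39, edgeR adjusted p = 0.453) had the smallest p, and Mcm6 stood at 27.7, 17.8 and 13.8 against 51.2, 29.9 and 13.9 RPKM. Mcm5 stood at 8.14, 6.62 and 4.04 against 5.32, 16.9 and 5.95 (0.67, edgeR adjusted p = 0.637), and Pcna at 42.2, 27.5 and 32.0 against 44.6, 38.8 and 30.9 (0.28, edgeR adjusted p = 0.793). Both overlapped. Tyms stood at 1.59, 0.738 and 3.10 against 2.35, 2.45 and 0.754, and Rrm2 at 6.96, 5.94 and 4.11 against 0, 9.71 and 4.71 RPKM. Without Vav1CreTet2KO replicate 2 the S phase median was 0.0064, with 7 of 14 members above 0, and the mitotic median was 0.51, with 20 of 26 above 0. Without the shallow replicate 1 they were 0.31 and 0.88. Dendritic cell markers summed to 8.03 to 37.3 RPKM in CD4 Tet2fl/fl and 30.9 to 76.8 in CD4 Vav1CreTet2KO libraries, and macrophage markers to 70.1 to 141 and 110 to 181. Their part in the members' values was not tested.

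CD4 cells of Cd4CreTet2KO mice showed the same direction against the same controls, at smaller size. The fold change was above 0 for 24 of 26 mitotic members (median 0.54, range -0.23 to 1.83) and 11 of 14 S phase members (median 0.19, range -1.12 to 0.68), and the median over all genes was 0.0030. By edgeR 0 of 40 members passed, where 0.0295% of all genes did, DESeq2 and limma called 0 too, and 2 mitotic members had an unadjusted p under 0.05, both higher, beside 1.76% of all genes higher and 0.738% lower. Cenpe stood at 5.58, 3.50 and 4.14 RPKM in Cd4CreTet2KO (1.34 ± 0.53), and the checkpoint kinase Bub1b at 7.79, 4.44 and 4.60 against 2.22, 2.20 and 2.60 in controls (1.33 ± 0.56), with edgeR adjusted p of 1.00 for both. Cdc20 stood at 4.59, 3.34 and 3.58 (1.83 ± 0.91) and Kif11 at 10.2, 6.67 and 6.37 (0.76 ± 0.44). All 3 knockout libraries were above all controls in these 4 genes and in Ccna2 (5.21, 4.99 and 4.94) and Cdk1 (1.68, 1.02 and 0.983). These 6 of 26 mitotic members, and 0 of 14 S phase members, compare with 5.83% of all genes higher and 7.93% lower without overlap. Macrophage markers were lower in this group: 9 of 9 tested had a fold change below 0 (median -2.79, 3 at an unadjusted p under 0.05, 0 passing by edgeR), with sums of 46.6 to 94.6 RPKM against 70.1 to 141 in controls. T cell markers were below 0 in 7 of 8 (median -0.22), with sums of 632 to 890.3 against 824 to 994. Their part in the members' values was not tested.

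Other members of that group overlapped with the controls. Mki67 stood at 38.1, 32.1 and 32.9 RPKM (0.23), Top2a at 29.3, 15.4 and 21.9 (0.47), Mcm5 at 12.4, 7.91 and 7.98 (0.68) and Pcna at 39.8, 26.6 and 31.7 (0.03). Rrm1, the large subunit of ribonucleotide reductase, had a fold change of 0.46. The edgeR adjusted p was 1.00 for each of these 5 genes. Tyms (2.29, 1.85 and 1.17), Rrm2 (6.30, 5.22 and 11.1), Ccnb1 (3.92, 3.45 and 3.02), Birc5 (3.18, 2.36 and 2.02), Hmgb2 (126, 69.4 and 86.5) and Stmn1 (36.4, 24.7 and 33.0 RPKM) are the remaining members followed in every library. Of these, Hmgb2 and Rrm2 had 1 library above the control range, and Ccnb1 and Stmn1 had 2.

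Between the knockouts, CD4 cells showed the spread of Vav1CreTet2KO more than a shift. Fold changes of Vav1CreTet2KO over Cd4CreTet2KO were above 0 for 19 of 26 mitotic members (median 0.30) and 9 of 14 S phase members (median 0.17), against -0.19 over all genes. By edgeR 0 of 40 members passed, where 0.0664% of all genes did, and DESeq2 and limma called 0. At an unadjusted p under 0.05, 3 mitotic and 0 S phase members were higher and none lower, beside 5.63% of all genes higher and 5.06% lower. These were Hmgb2 (1.21 ± 0.38, edgeR adjusted p = 0.247), Cenpe (1.29 ± 0.53, edgeR adjusted p = 0.412) and Aurka (2.45 ± 1.02, edgeR adjusted p = 0.415), and Hmgb2 and Cenpe passed without Vav1CreTet2KO replicate 3, as did 4.99% of all genes. Hmgb2 passed without the filter too, as did 2% of all genes. Among mitotic members 1 was higher without overlap (Ccna2, beside 4.14% of all genes) and 2 were lower (Bub1b and Kif20a, beside 15.3%), named after their values were seen. Birc5 (1.32, edgeR adjusted p = 0.512), Cdc45 (1.57, edgeR adjusted p = 0.543), Mcm7 (-0.87, edgeR adjusted p = 0.605), Mki67 (0.26, edgeR adjusted p = 0.780), Pcna (0.25, edgeR adjusted p = 0.845), Top2a (0.20, edgeR adjusted p = 0.890) and Mcm5 (-0.01, edgeR adjusted p = 0.997) overlapped. The last has no direction, since it was 0.15 to 0.24 without 1 or another library. Macrophage markers were higher in Vav1CreTet2KO here, in 8 of 9 tested (median 3.01, 6 at an unadjusted p under 0.05, 4 without overlap), and dendritic cell markers in 5 of 7 (median 1.302, 2 at an unadjusted p under 0.05, 3 without overlap), with 0 passing by edgeR. Their part in the members' values was not tested.

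**Figure D3:**
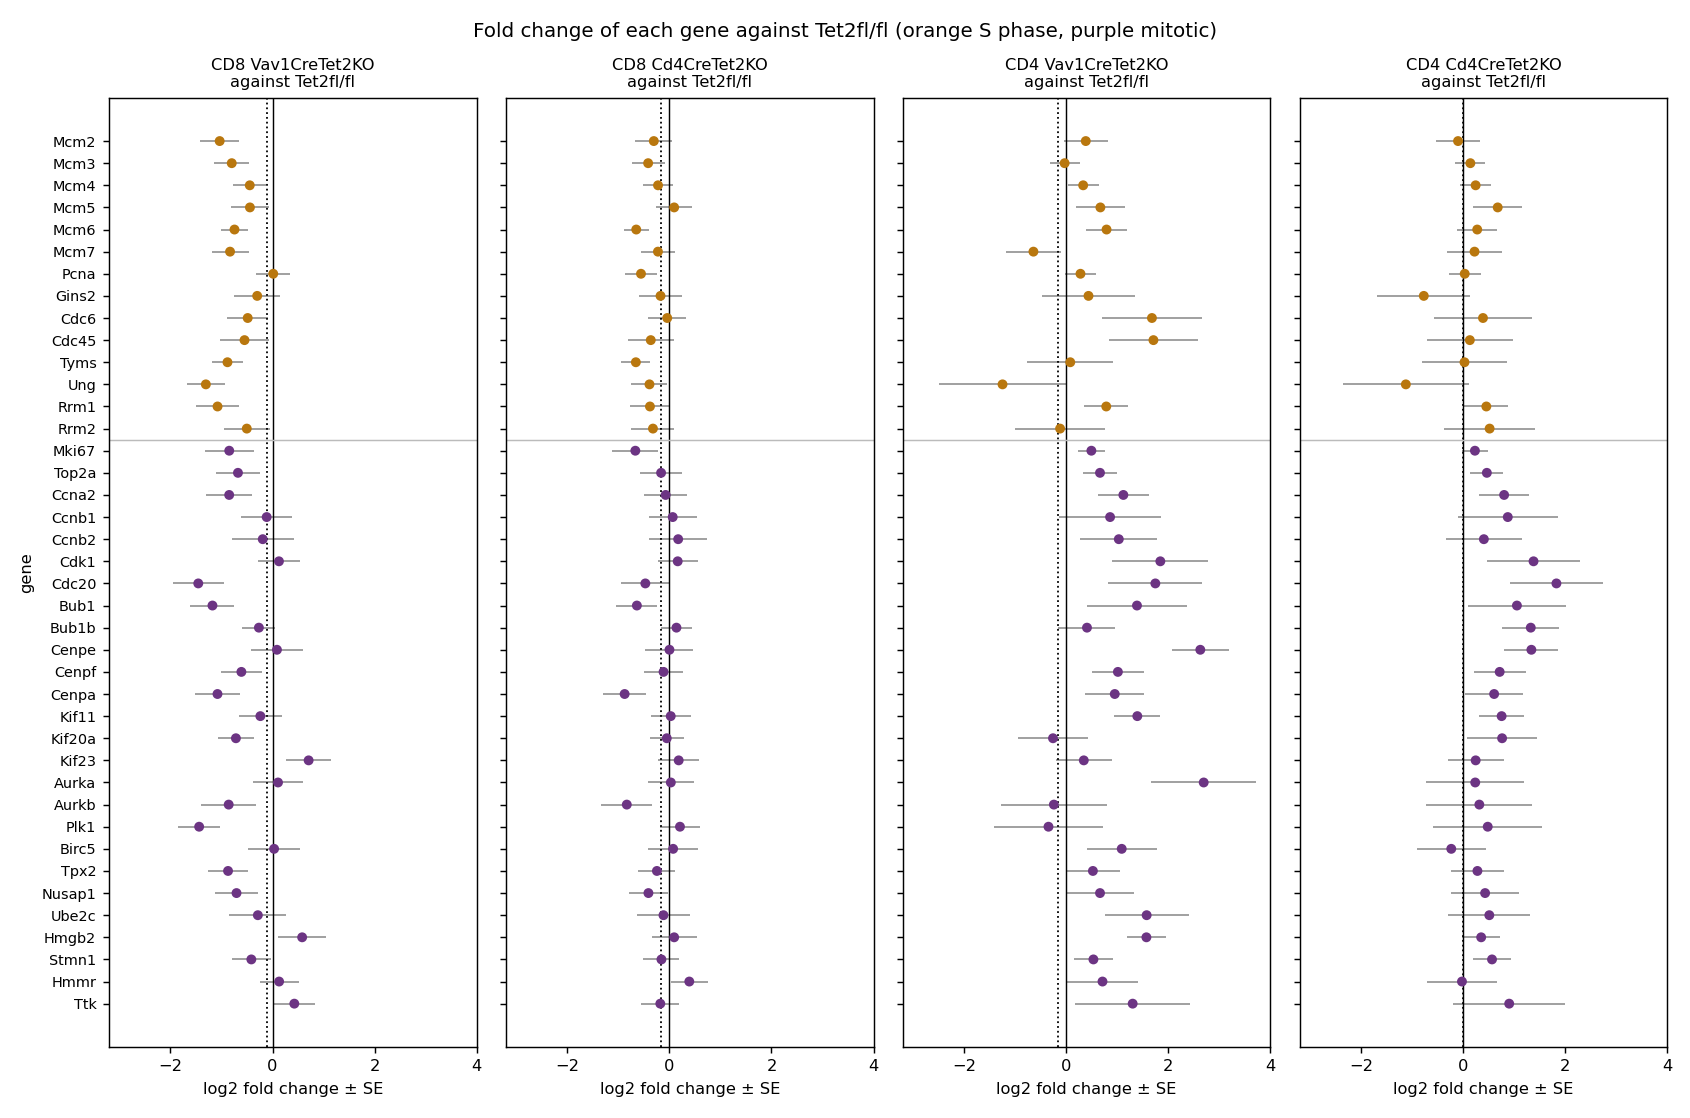
Log2 fold change against Tet2fl/fl with its SE for each member in the 4 comparisons with controls, S phase in orange and mitotic in purple. For CD4 cells the SE was derived from the edgeR F statistic. The dotted line is the median over all genes tested. Most CD8 Vav1CreTet2KO points lie below it for S phase (median -0.65), and most CD4 Vav1CreTet2KO points above it for mitosis (median 0.98).

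The 8 animals that gave both cell types allow CD8 and CD4 cells of 1 tumour-bearing mouse to be set side by side. The 2 tables were normalized separately by the authors, so these values carry no test. In the 3 Tet2fl/fl animals, 10 of 14 S phase and 15 of 26 mitotic members were higher in CD8 than in CD4 cells in every animal and 0 were lower in every animal, where 21.6% of 9494 genes were higher and 19.04% lower. Mki67, Top2a, Ccna2 and all 6 Mcm genes were among those higher. In the 3 Vav1CreTet2KO animals, 1 S phase member (Mcm5) was higher in CD8 cells in every animal and 2 (Cdc45 and Rrm1) were lower. Of the mitotic members 0 were higher and 10 were lower (Top2a, Ccna2, Ccnb2, Bub1, Cenpe, Cenpa, Kif11, Aurka, Birc5 and Tpx2), where 15.6% of all genes were higher and 9.41% lower. In both Cd4CreTet2KO animals 7 S phase members were higher and 0 lower, while 5 mitotic members were higher and 10 lower, where 22.5% of all genes were higher and 38.7% lower.

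The same values as scores show how far each animal stood from equality. The CD8 score minus the CD4 score of the mitotic members was 0.40, 0.31 and 0.74 in the Tet2fl/fl animals, -0.23, -0.41 and -0.84 in the Vav1CreTet2KO animals and -0.12 and 0.01 in the Cd4CreTet2KO animals. For the S phase members it was 0.48, 0.40 and 0.96, then -0.21, -0.07 and -0.27, then 0.09 and 0.40. Tet2fl/fl and Vav1CreTet2KO animals were on opposite sides of 0 in both lists, before and after the libraries were rescaled by size factors. The Cd4CreTet2KO animals were not: their mitotic differences were 0.08 and 0.02 after rescaling. Size factors were computed within each cell type. Rescaling therefore does not put CD8 and CD4 cells on a shared scale, and cannot check on which side of 0 an animal lies. For single genes, counted without rescaling, 7 of 26 mitotic members (26.9%) and 2 of 14 S phase members (14.3%) were higher in CD8 cells of every control and lower in CD8 cells of every Vav1CreTet2KO animal, as were 1.65% of 9494 genes. Against Cd4CreTet2KO animals, 6 mitotic members (23.1%) and 0 S phase members did so, as did 6.07% of all genes. No member did the opposite. The Vav1CreTet2KO animals include both libraries of doubtful depth or unit, those of replicate 1, and the replicate 3 CD8 library that was low in all mitotic members.

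**Figure D4:**
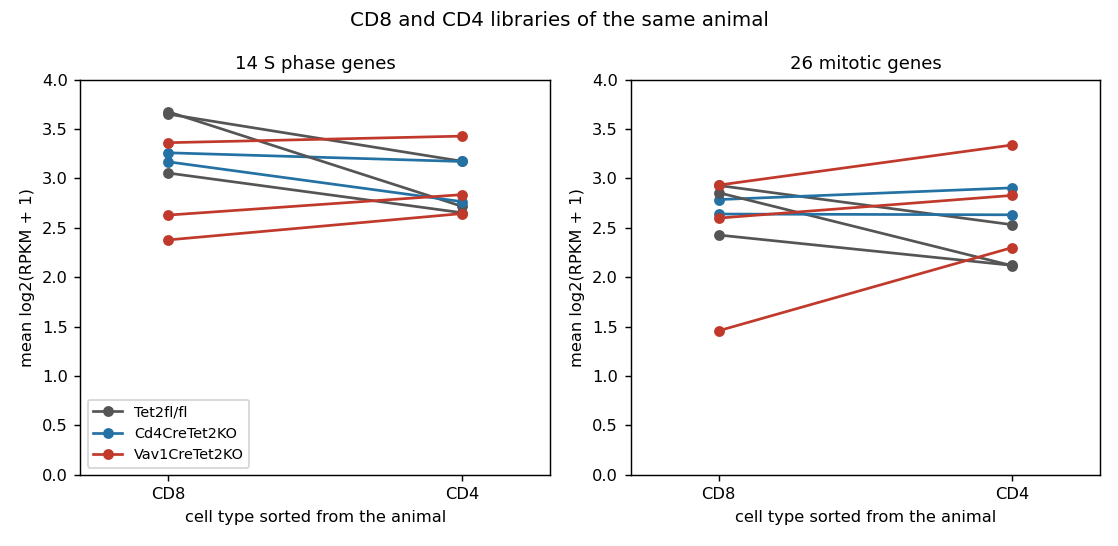
S phase and mitotic scores (mean log2(RPKM + 1)) of CD8 and CD4 cells, joined by a line for each of the 8 animals that gave both. Lines fall from CD8 to CD4 in all 3 Tet2fl/fl animals and climb in all 3 Vav1CreTet2KO animals, in both lists.

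Genes that control the cycle, and other genes expressed in it, were read from lists chosen by name. Other S phase genes (35 of 36 tested in CD8 cells) had a median fold change of -0.32 in CD8 Vav1CreTet2KO, with 12 above and 23 below 0 and 2 lower at an unadjusted p under 0.05, and other G2 and mitosis genes (38 of 40 tested) had -0.24, with 9 above, 29 below and 4 lower. None passed by limma. Of all genes in this comparison, 11.6% were lower and 5.7% higher at an unadjusted p under 0.05. Rpa2, which coats single-stranded DNA, was the nearest of the first (-1.48 ± 0.39, limma adjusted p = 0.081), and the kinetochore gene Nuf2 the nearest of the second (-1.07 ± 0.29, limma adjusted p = 0.087). In CD8 Cd4CreTet2KO the medians were -0.21 and -0.18. In CD4 Vav1CreTet2KO they were 0.36 (24 above, 12 below, 7 higher at an unadjusted p under 0.05) and 0.76 (26 above, 14 below, 7 higher), with 0 passing by edgeR, and in CD4 Cd4CreTet2KO 0.24 and 0.38. At that unadjusted p, 6.72% of all genes were higher and 5.21% lower in CD4 Vav1CreTet2KO. Slbp, which binds histone transcripts, was the nearest S phase gene in CD4 Vav1CreTet2KO (1.58 ± 0.45, edgeR adjusted p = 0.210), and the kinetochore scaffold Knl1 (1.95 ± 0.61, edgeR adjusted p = 0.249) was among the nearest mitotic ones.

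Upstream of the members, a G1 kinase passed the test in CD8 cells, as did 2 inhibitors that the filter admitted only through the controls. Cdk6, the kinase that with D cyclins phosphorylates RB to start the cycle, stood at 22.7, 14.5 and 20.5 RPKM in Tet2fl/fl, 2.07, 6.57 and 3.28 in Vav1CreTet2KO and 5.63, 4.07, 3.74 and 5.33 in Cd4CreTet2KO CD8 cells. It fell by 2.11 ± 0.33 in Vav1CreTet2KO (limma adjusted p = 0.011) and fell by 1.82 ± 0.31 in Cd4CreTet2KO (limma adjusted p = 0.031), and neither overlapped with the controls. The first call was lost without Tet2fl/fl replicate 1 (limma adjusted p = 0.0877). The second was lost with most other settings, among them a pseudocount of 0.1 (limma adjusted p = 0.068). Leaving out Tet2fl/fl replicate 1, 2 or 3 gave it a limma adjusted p of 0.296, 0.097 and 0.112. Without both macrophage-rich libraries its limma adjusted p was 0.253. In CD4 cells Cdk6 stood at 9.51, 8.30 and 7.12 in controls, 1.51, 2.49 and 2.75 in Vav1CreTet2KO (-1.75 ± 0.34, edgeR adjusted p = 0.110) and 5.58, 8.602 and 5.94 in Cd4CreTet2KO. The cyclin Ccnd1, whose product pairs with Cdk6, had fold changes of 2.14 in CD8 Vav1CreTet2KO (limma adjusted p = 0.094) and 2.32 in CD4 Vav1CreTet2KO (edgeR adjusted p = 0.318). No other of the 8 G1 cyclins and kinases passed in any comparison.

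The inhibitors Cdkn2a and Cdkn2b share a locus, and their products hold back Cdk4 and Cdk6 (Cdkn2a also encodes ARF). Cdkn2a stood at 1.11, 3.98 and 1.80 RPKM (22, 108 and 58 reads) in Tet2fl/fl CD8 cells, at 0 in all 3 Vav1CreTet2KO libraries and at 0.345, 0.260, 0 and 0 in Cd4CreTet2KO. Against a floor of 3 reads per library, its mean was at least 19.1-fold lower in Vav1CreTet2KO, a ratio that was not itself tested. On the log2(RPKM + 1) scale it fell by 1.63 (limma adjusted p = 0.041). Of the alternatives that could test Cdkn2a, only DESeq2 on recovered reads kept this call (adjusted p = 0.011). Cdkn2b stood at 4.84, 2.61 and 1.78 in controls, 0, 0.158 and 0 in Vav1CreTet2KO and 0.566, 0.0975, 0.390 and 0.671 in Cd4CreTet2KO, and it fell by 1.89 ± 0.34 in Vav1CreTet2KO (limma adjusted p = 0.018). edgeR on recovered reads called neither (adjusted p = 0.170 and 0.151). Both genes passed the filter on low values only through the 3 controls, the group in which they were high. With any 1 control left out neither could be tested. Without the filter the limma adjusted p was 0.077 for Cdkn2a and 0.047 for Cdkn2b. In Cd4CreTet2KO the limma adjusted p was 0.079 and 0.069. In CD4 cells Cdkn2a stood at 1.57, 0.504 and 0 RPKM in controls, at 0 in all 3 Vav1CreTet2KO libraries and at 0.493, 0.335 and 0.174 in Cd4CreTet2KO, and Cdkn2b at 1.25, 0.361 and 0, then 0 in all 3, then 0, 1.43 and 0.366. The rest of the 14 inhibitors and quiescence genes did not pass, and the median of the 13 tested was -0.10 in CD8 Vav1CreTet2KO and -0.32 in CD8 Cd4CreTet2KO. The 20 E2F, RB and DREAM regulators had medians of -0.22 and -0.15 there and none passed, the RB relative Rbl2 coming nearest (-1.31, limma adjusted p = 0.063, and -1.20, limma adjusted p = 0.094). In CD4 cells the medians of G1, E2F and inhibitor genes were -0.02, 0.30 and -0.22 in Vav1CreTet2KO and -0.06, 0.11 and 0.03 in Cd4CreTet2KO, with none passing by edgeR.

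Replication-dependent histone genes, which are transcribed in S phase and whose transcripts end without a poly(A) tail, are seen here because the kit reads total RNA. Their near-identical copies make each gene uncertain, so the sum over the 67 genes is given. This sum reached 1672, 1012 and 1783 RPKM in Tet2fl/fl, then 2759, 2002 and 1105 in Vav1CreTet2KO and 2157, 1504, 2577 and 1611 in Cd4CreTet2KO CD8 cells. In CD4 cells it was 1294, 1044 and 1050 in Tet2fl/fl, 4699, 7867 and 1869 in Vav1CreTet2KO and 2561, 1206 and 1566 in Cd4CreTet2KO. The CD4 Vav1CreTet2KO libraries were all above the CD4 controls, and replicate 3 was again the nearest to them. Of 63 histone genes tested there, 59 were above 0 with a median of 1.88, 35 were higher at an unadjusted p under 0.05 and 0 passed by edgeR, with H3c2 (3.57), H2bc15 (2.64) and H1f4 (1.74) nearest (edgeR adjusted p = 0.110 each). Of all genes, 6.72% were higher at that unadjusted p. In CD4 Cd4CreTet2KO 58 of 63 were above 0 with a median of 0.65. In CD8 cells 36 of 61 were above 0 in Vav1CreTet2KO (median 0.23), where H4c6 fell by 2.48 ± 0.54 (limma adjusted p = 0.042, lost under most alternatives), and 50 of 61 in Cd4CreTet2KO (median 0.52).

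**Figure D5:**
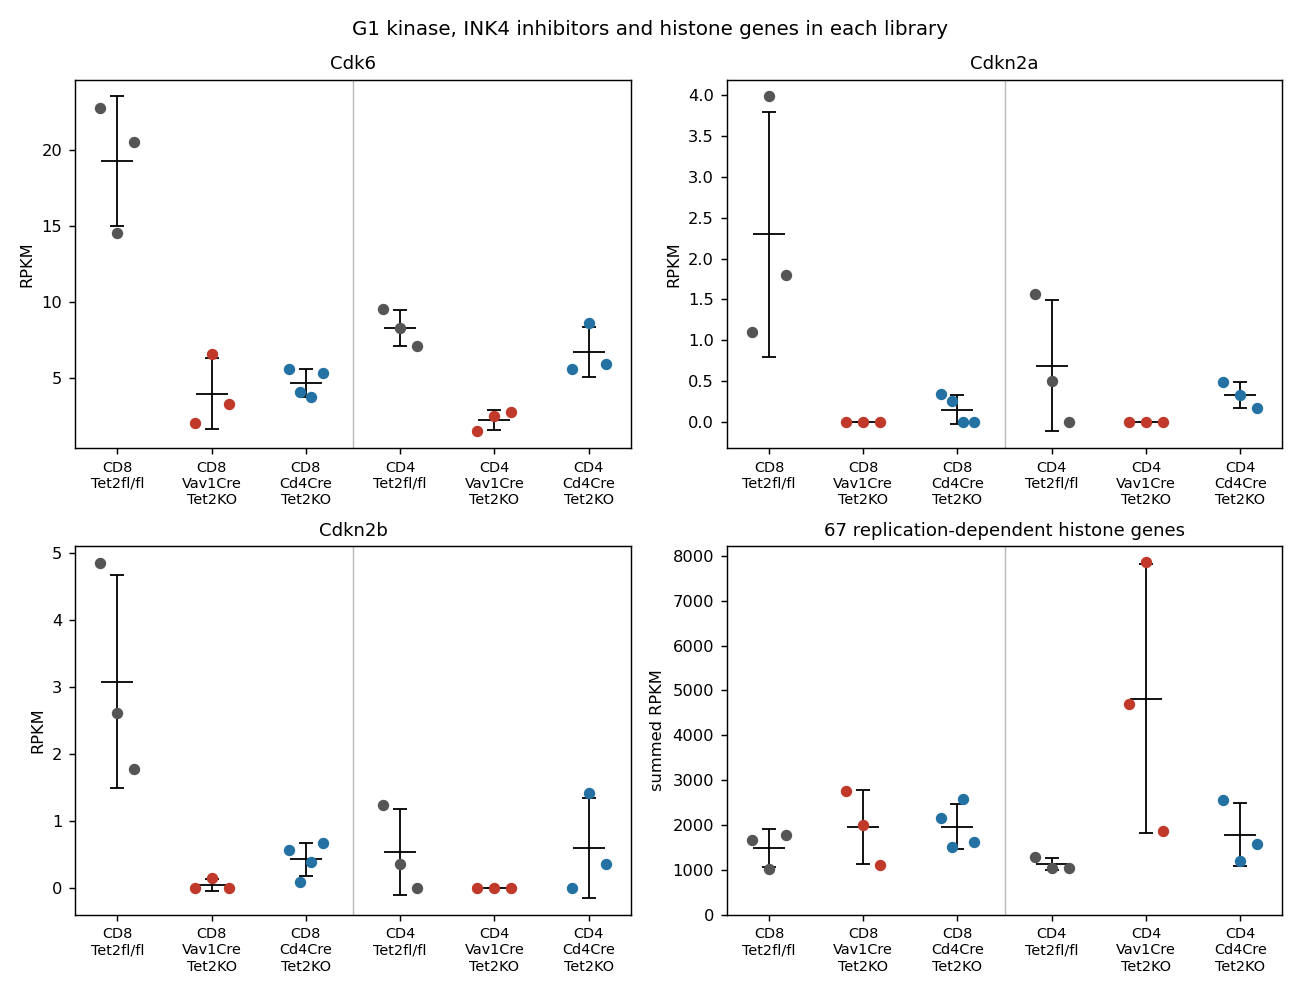
RPKM of Cdk6, Cdkn2a and Cdkn2b and summed RPKM of 67 histone genes in each library, by cell type and genotype, with group mean and SD. CD8 Cdk6 lies at 14.5 to 22.7 in controls and at 2.07 to 6.57 in both knockouts, and the CD4 Vav1CreTet2KO histone sums lie at 1869 to 7867, above the CD4 controls at 1044 to 1294.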

How the data were processed

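T cell samples numbering 19, from 11 animals told apart by the number in each library name, were profiled as HiSeq X read pairs from SMARTer Stranded Total RNA (Pico) libraries, per the labels' protocols. Groups came from the sample labels. The authors deposited counts of reads per gene and RPKM for CD4 cells and RPKM only for CD8 cells, per the file headers. The authors' log2 fold change and false discovery rate were copied from the deposited tables and entered no test. The submitters' processing notes name the builds GRCm38 and mm10. No source used here names the aligner, the counter or the build of the tables' coordinates, which are therefore not printed. Of the per-sample columns 28 were read and 18 were not used.

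CD8 values were tested with limma 3.58.1 in R 4.3.3 (trend, robust) on log2(RPKM + 1), with 10 libraries in 1 fit and a filter that kept the 10224 genes with 3 or more libraries at 1 RPKM or above. A fold change on this scale understates that of low genes. CD4 counts were tested with edgeR 4.0.16 (filterByExpr, TMM, robust quasi-likelihood test), over 13554 genes with 9 libraries in 1 fit. edgeR reports no SE. The SE given for CD4 cells is the absolute log2 fold change divided by the square root of the F statistic, so it restates that test. Both used Benjamini-Hochberg adjustment over all genes tested at 0.05, and the scripts were tested on simulated data. CD8 reads were recovered from RPKM with gene lengths implied by the CD4 table: all 134905 values above 0 that had a length (100%) lay within 0.01 of a whole number. Floors of 3 reads cover counting error only, since no molecular identifiers were used.

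The 40 members and all other lists were chosen with earlier results of these data known. Members named are those called, the 2 S phase and 4 mitotic members of smallest p in each comparison, Mki67, Top2a, Mcm5 and Pcna throughout, and 11 members in every library. Other lists give up to 3 genes, called ones first. Alternatives were a pseudocount of 0.1, no filter on low values, other size factors, only the compared groups, edgeR 4.0.16 or DESeq2 1.42.0 on recovered reads, DESeq2 and limma for CD4 cells, the replicate number as a block, and leaving out each library. Leaving out both macrophage-rich CD8 libraries, and testing other lists' genes under every alternative, were added after the data had been seen.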

Additional observations from a re-analysis of the deposited data

Results flagged for a closer look

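Of 42 values (40 members and both scores) looked at in the group of 4 CD8 Cd4CreTet2KO libraries, there were 2 in which 1 library lay far from the other 3, and chance gives about 1 in 20. Ccnb2, a B-type cyclin of mitosis, was lowest at 4.27 RPKM in replicate 2, and the checkpoint kinase Ttk was highest at 1.13 RPKM in replicate 1.

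The CD8-minus-CD4 difference within an animal had 1 sign in every Tet2fl/fl animal and the opposite sign in every animal of a knockout for the values below. This difference between genotypes was not tested. For Vav1CreTet2KO minus Tet2fl/fl, on the log2(RPKM + 1) scale, it was -0.79 for the S phase score and -0.97 for the mitotic score. Of S phase members it was -1.62 for Cdc45 and -1.69 for Rrm1. Of mitotic members it was -1.21 for Top2a, -1.68 for Ccna2, -1.93 for Bub1, -1.68 for Cenpe, -1.76 for Cenpa, -1.23 for Kif11 and -1.08 for Tpx2. For Cd4CreTet2KO minus Tet2fl/fl, from 2 and 3 animals, it was -0.64 for Mki67, -0.60 for Top2a, -0.61 for Ccna2, -1.20 for Bub1, -0.95 for Cenpe and -1.23 for Cenpa. The same 3 control animals stand in both sets. Signs of single genes were read without rescaling. Of 9494 genes, 1.65% were higher in CD8 cells of every control and lower in every Vav1CreTet2KO animal, and 1.82% the opposite. For Cd4CreTet2KO these shares were 6.07% and 3.00%. After rescaling by size factors the Cd4CreTet2KO mitotic score differences were 0.08 and 0.02, so the signs of its single genes may depend on scaling.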

How the results depend on the processing

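The spread between libraries was taken as the pooled SD of the library scores, 0.32 to 0.48 on the log2(RPKM + 1) scale. It exceeded several of the medians, so a median could change sign and still move by less than this spread. Over the alternatives, 154 values of the list medians moved by less than the spread between libraries and 4 by more, and 8 of the 158 had the other sign. Of these 8, 6 were the CD8 Cd4CreTet2KO mitotic median (-0.06), which was 0.10 rescaled, 0.13 by edgeR, 0.11 by DESeq2, 0.04 without both macrophage-rich libraries, 0.0020 without Tet2fl/fl replicate 1 and 0.09 without Cd4CreTet2KO replicate 2. The others were the CD8 Vav1CreTet2KO mitotic median (-0.35, then 0.02) and that between the knockouts (-0.26, then 0.26), both without Vav1CreTet2KO replicate 3. The 4 larger moves concerned the CD8 mitotic median between the knockouts (-0.26, and -0.58 to 0.26 leaving out 1 library), and in CD4 Vav1CreTet2KO against Tet2fl/fl the S phase median (0.36, and 0.0064 to 0.49 leaving out 1 library) and the mitotic median (0.98, then 0.59 with limma on log2(RPKM + 1), and 0.51 to 1.24 leaving out 1 library). Calls among members numbered 0 except in 8 cases. In CD8 Vav1CreTet2KO against Tet2fl/fl DESeq2 called 1 S phase member, and leaving out 1 library gave 0 to 1 S phase and 0 to 1 mitotic members. In CD4 Vav1CreTet2KO against Tet2fl/fl 2 mitotic members were called without the filter and 2 by DESeq2, and 0 to 3 leaving out 1 library. In CD4 cells between the knockouts 1 was called without the filter and 0 to 2 leaving out 1 library.

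Counts over all genes varied more. CD8 Vav1CreTet2KO against Tet2fl/fl gave 148 calls, and 88 with a pseudocount of 0.1, 48 without the filter, 98 with only the compared groups, 90 with the replicate block, 91 by edgeR, 809 by DESeq2 and 0 to 211 leaving out 1 library. CD8 Cd4CreTet2KO gave 52, and in the same order 12, 3, 279, 0 with the block and 542 by DESeq2, 0 without both macrophage-rich libraries and 0 to 40 leaving out 1. Between the knockouts CD8 cells gave 0, then 2 with only the compared groups, 62 by DESeq2 and 0 to 1 leaving out 1 library. CD4 Vav1CreTet2KO gave 1, then 383 without the filter, 451 by DESeq2, 3 with the block, 0 by limma and 0 to 819 leaving out 1 library. CD4 Cd4CreTet2KO gave 4, then 37, 23 by DESeq2, 8 with only the compared groups, 2 by limma and 0 to 4. Between the knockouts CD4 cells gave 9, then 403, 405, 3 and 4 in that order and 2 to 719. The cause of these moves was not tested. Same-numbered libraries of different genotypes were separate animals, and the correlation of their deviations was -0.0914 to 0.104, so that the block is an alternative only, with 0 members called under it.

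Signs turned for some members. Leaving out 1 library in turn gave -0.28 to 0.32 for Pcna in CD8 Vav1CreTet2KO, -0.065 to 0.22 for Mcm5 in CD8 Cd4CreTet2KO and -0.083 to 0.20 for Pcna in CD4 Cd4CreTet2KO, each against Tet2fl/fl. Between the knockouts it gave -0.58 to 0.51 for Mki67 and -0.85 to 0.11 for Top2a in CD8 cells, and -0.63 to 0.24 for Mcm5 and -0.024 to 0.42 for Mki67 in CD4 cells. Top2a in CD8 Cd4CreTet2KO was 0.042 rescaled, 0.062 by edgeR, 0.043 by DESeq2 and 0.0042 without both macrophage-rich libraries, and Pcna in CD4 Cd4CreTet2KO was -0.049 by limma. Among called genes of other lists, Cdk6 in CD8 Cd4CreTet2KO lost its call under most alternatives, as did Cdkn2a and H4c6 in CD8 Vav1CreTet2KO. Cdkn2b lost its call under several. The limma adjusted p was 0.088 for Cdkn2a at a pseudocount of 0.1 and 0.0505 for Cdkn2b without Vav1CreTet2KO replicate 1. Groups held 3 or 4 animals, the lowest members lay near 1 RPKM, and the shallow CD4 library held 707866 reads on genes, which limits what could be detected.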
